A study of Mus musculus with 12 samples.

Results

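Lin28a, Lin28b, Trim71 and 6 genes known as targets of the let-7 microRNAs (Hmga1, Hmga2, Igf2bp1, Igf2bp2, Igf2bp3 and Prtg) were followed in embryonic stem (ES) cells of the mouse and in embryoid bodies made from those cells. The 9 genes were chosen by symbol, and each had 1 row among the 54537 genes of the expression table. All 9 passed the filter on low values (at least 1 FPKM in at least 2 libraries), as did 16289 genes in all. FPKM is a level of RNA per length of transcript, scaled to the number of sequenced fragments, so levels given in FPKM can be set side by side between genes.

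Poly(A) RNA was sequenced from a wild type line (WT) and from a line whose genotype label is WT+1343KO-a14, called 1343KO here. Both lines were sampled as ES cells on gelatin in serum with leukaemia inhibitory factor, the cytokine that holds ES cells undifferentiated (day 0), and as embryoid bodies, floating aggregates grown without that factor in 10% serum, at days 8 and 16. With 2 libraries for each of 6 groups, 12 libraries were measured. The labels name a single 1343KO line, do not give the strain of either line, and do not say what 1343 stands for, so effects of the deletion and of the line cannot be told apart. The series title concerns long noncoding RNAs in ES cells and links SNORA73 with leaving pluripotency. Snhg3, a host gene of SNORA73 RNAs, was at 8.31 to 61.1 FPKM in the WT libraries and at 0 to 1.57 FPKM in the 1343KO libraries.

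Steps between the lowest FPKM values put the depth at about 4820000 to 7920000 fragments a library, and replicates correlated at 0.970 to 0.975 across genes, which are not independent replicates. The summed level of 10 markers of pluripotent cells went from 3480 to 3516 FPKM in WT at day 0 to 199.7 to 233.1 at day 8 and 135.6 to 145.1 at day 16. In 1343KO it was 4070 to 4079, then 2877 to 2927, then 2379 to 2386 FPKM. The label of every library reads embryonic stem cells, also at days 8 and 16, when these markers were low in WT. Whether the 2 replicates of a group came from separate cultures is not stated, and p-values then cover only the spread among the libraries at hand, possibly a technical one.

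Lin28 proteins bind the precursors of let-7 microRNAs and keep them from maturing, with the help of enzymes that add uridine to the precursor and of a nuclease that then degrades it. Mature let-7 in turn represses mRNAs that carry its sites in the 3′ UTR, among them those of Lin28a, Lin28b and Trim71 themselves, so that high Lin28 and high let-7 tend to exclude each other. In ES cells Lin28a and Trim71 are abundant and mature let-7 is scarce; let-7 accumulates as cells differentiate. Mature let-7 was not measured by these libraries, which hold poly(A) RNA.

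The 9 mature let-7 family sequences that pair with these sites are shown by 4 of them, taken from RefSeq (GRCm38), with the seed (bases 2 to 8) in capitals. All 9 share that seed.
let-7a: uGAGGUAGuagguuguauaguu
let-7d: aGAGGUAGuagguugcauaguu
let-7g: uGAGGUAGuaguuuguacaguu
miR-98: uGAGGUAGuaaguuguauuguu

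The cold shock domain and zinc knuckles of Lin28 recognise the loop of the precursor, where the zinc knuckles bind a GGAG element. Of the 12 let-7 family hairpins in RefSeq, 9 hold GGAG between their 2 arms and 3 (Mirlet7b, Mirlet7c-2 and Mir98) do not. The loops of 2 with the element, in capitals, and of 1 without it are shown for comparison.
Mirlet7g: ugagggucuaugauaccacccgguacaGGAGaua
Mirlet7a-1: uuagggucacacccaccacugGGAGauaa
Mirlet7b: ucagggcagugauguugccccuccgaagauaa

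Matches to the let-7 seed were searched on the sense strand of the longest annotated 3′ UTR of each gene (GENCODE M21). The kinds counted were the 8mer CTACCTCA, the 7mer-m8 CTACCTC and the 7mer-A1 TACCTCA, and a 7mer inside an 8mer was not counted again. A match is a description of the sequence and does not show that let-7 acts on it. The genes were chosen as known let-7 targets or as parts of the pathway. Many matches were therefore likely from the choice itself, and the shares of other genes given below are no test. All 9 genes held a match, 33 in all, and 8 of the 9 held an 8mer, 14 in all. Of the 13556 tested genes with an annotated 3′ UTR, 16.7% held a match of any kind and 3.63% an 8mer. However, all 9 genes have longer 3′ UTRs (1183 to 6337 bases) than the median of 1140.5 bases. Among genes with a 3′ UTR of 80% to 125% of the same length, 13.6% (Hmga1) to 52.7% (Igf2bp1) held a match of any kind and 3.16% to 13.7% an 8mer. The first match of the strongest kind in each gene is printed below 5′ to 3′ with 16 bases before it, the match in capitals.
Lin28a, chr4:134005189-134005212, minus strand: tgcacagcctgttgaaCTACCTCA
Lin28b, chr10:45381022-45381045, minus strand: cacccgggcgggaagtCTACCTCA
Trim71, chr9:114512472-114512495, minus strand: caacattgcctaagtcCTACCTCA
Hmga1, chr17:27563276-27563299, plus strand: ctcctctgttcacaaaCTACCTCt
Hmga2, chr10:120364224-120364247, minus strand: cgccgacattcaatttCTACCTCA
Igf2bp1, chr11:95961778-95961801, minus strand: tgctgtgcgaagtaaaCTACCTCA
Igf2bp2, chr16:22059473-22059496, minus strand: aacacacaaataaaagCTACCTCA
Igf2bp3, chr6:49086787-49086810, minus strand: gtgcatttttactcaaCTACCTCA
Prtg, chr9:72912557-72912580, plus strand: gccctctgctgaatagCTACCTCA

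Hmga2 held the most matches, 7 in 3014 bases, of which 1 was an 8mer. Of the 1799 genes of like length, 0.111% held as many. Trim71 held 6 matches in 5512 bases, of which 4 were 8mers, and 0.318% of 628 genes of like length held as many. Lin28b and Igf2bp1 held 5 each and Prtg 4, as many as 0.487%, 0.913% and 1.39% of genes of like length. Lin28a and Igf2bp2 held 2 each, as many as 4.73% and 3.10%. Hmga1, with a 7mer-m8, and Igf2bp3 held 1 each, and 13.6% and 24.1% of genes of like length held at least 1.

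**Figure D1:**
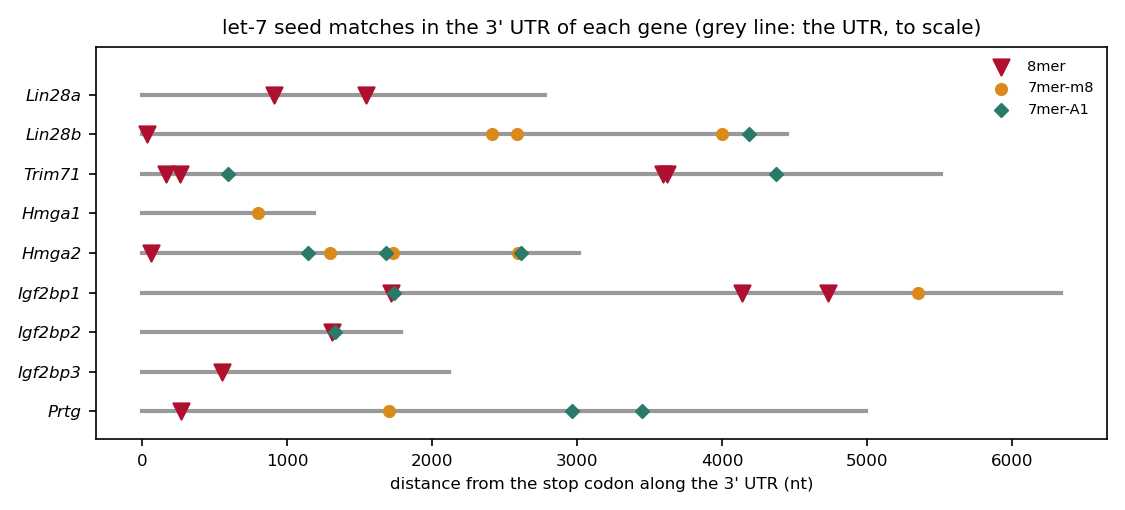
Positions of the let-7 seed matches along the 3′ UTR of each gene. The x axis is the distance from the stop codon in nucleotides, the grey line is the UTR to scale, and each mark is 1 match by kind (8mer, 7mer-m8 or 7mer-A1). Trim71 carries 4 of the 14 8mers and Hmga1 has a single 7mer-m8.

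In WT the genes went 2 ways as ES cells became embryoid bodies, and in 1343KO the fall was smaller or missing. Trim71 and Igf2bp1 still fell in 1343KO from day 0 to day 16, by 0.43 and 0.55 on the log2 scale. Their falls in WT were 1.94 and 1.34. From day 0 to day 16, Lin28a, Lin28b, Trim71, Hmga1, Igf2bp1 and Prtg fell in WT and Hmga2, Igf2bp2 and Igf2bp3 rose. At day 16, 6 of the 9 were higher in 1343KO than in WT (Lin28a, Lin28b, Trim71, Hmga1, Igf2bp1 and Prtg), 1 was lower (Hmga2), and Igf2bp2 and Igf2bp3 did not pass. Calls are from limma on log2(FPKM + 1) over all 16289 genes, at a Benjamini-Hochberg adjusted p under 0.05. At day 16, 52.6% of all genes tested passed (28.5% of the genes tested were called higher and 24.1% lower), so differences between the lines were common. The median difference of the 9 was 1.46 on the log2 scale and that of all genes 0.07. Genes at a mean of 20 FPKM or more outside chromosome 8 had a median of 0.40. With the filter at a mean of 5 FPKM or more, which all 9 passed, 3756 of 9602 genes were higher and 2305 lower. Folds below are ratios of mean FPKM, and log2 differences were taken after adding 1 FPKM to each value, which makes the differences of low genes too small.

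**Figure D2:**
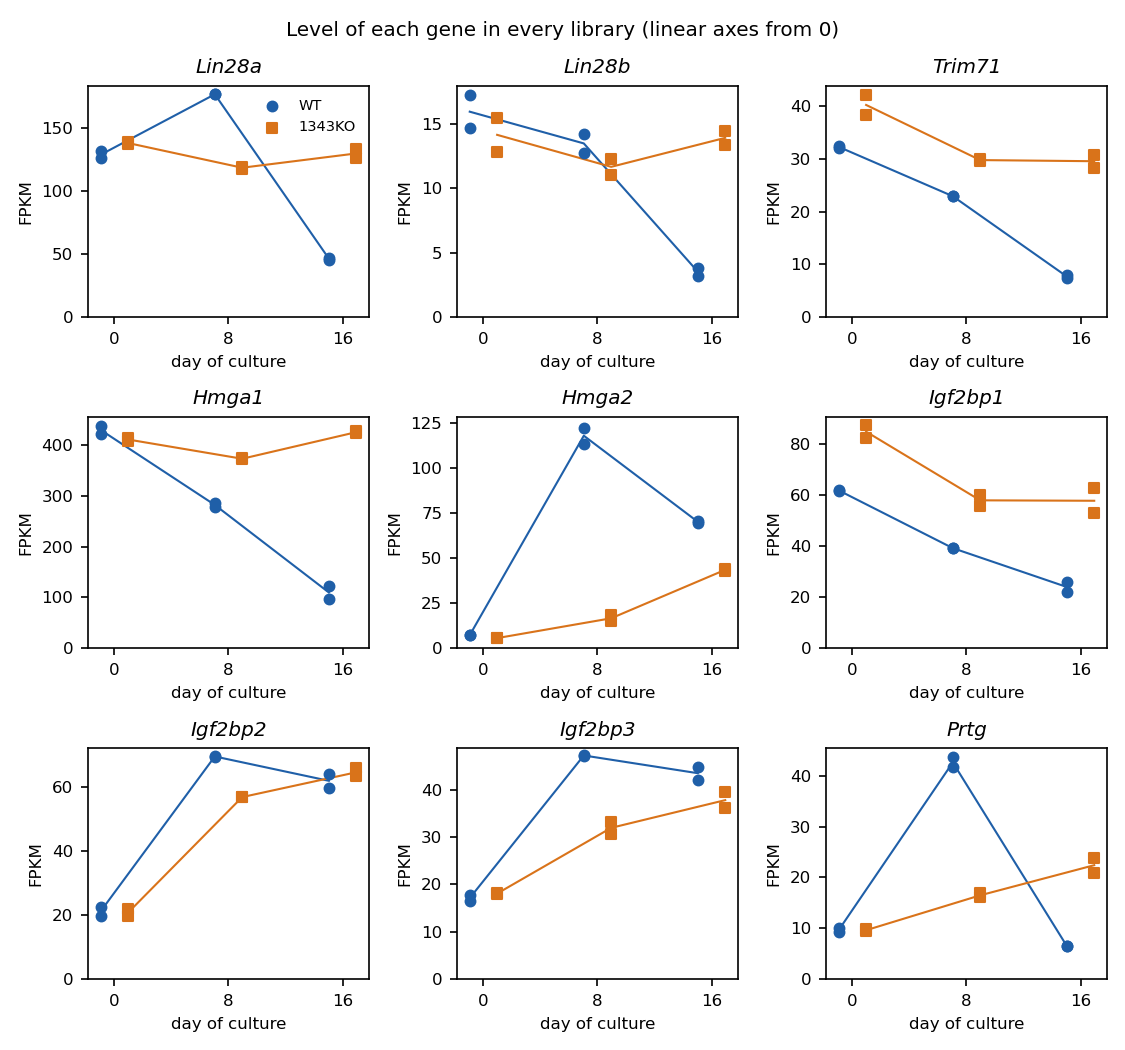
Level of each of the 9 genes in every library. The y axes are FPKM on linear axes from 0, the x axes are the day of culture, points are single libraries (WT circles, 1343KO squares, drawn slightly apart) and lines join the group means. Lin28a and Hmga1 end low only in the WT libraries of day 16, and Hmga2 peaks at day 8 in WT.

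The first of the Lin28 pair, Lin28a (ENSMUSG00000050966, chr4:134003330-134018841, minus strand), was at 132 and 126 FPKM in WT at day 0, at 177 and 177 at day 8, and at 45.7 and 47.3 at day 16. The 1343KO cells had 139 and 137 FPKM at day 0, 118 and 119.6 at day 8, and 133 and 127 at day 16. The WT day 16 libraries were the lowest of all, the WT day 8 libraries the highest, and neither overlapped any other group. Lin28a differed between the lines in opposite directions at the embryoid body times: it was 1.49-fold higher in WT at day 8 (log2 difference of 1343KO from WT -0.57 ± 0.06 (SE), adjusted p = 4.2e-05) and 2.80-fold higher in 1343KO at day 16 (1.46 ± 0.06, adjusted p = 8.2e-08). At day 0 the difference did not pass (0.10, adjusted p = 0.42, 95% interval -0.03 to 0.22). Within 1343KO, Lin28a was lower at day 8 than at day 0 by 1.16-fold (adjusted p = 0.02), a call that was lost without any 1 of the 4 libraries of those groups, and at day 16 it did not differ from day 0 beyond the test (adjusted p = 0.28), although with median-of-ratios scaling the fall of 0.23 passed.

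Lin28b (ENSMUSG00000063804, chr10:45376620-45486395, minus strand), the paralogue that sequesters primary let-7 transcripts in the nucleus, was less abundant than Lin28a in every group, with a ratio of mean FPKM, Lin28a over Lin28b, of 8.08 to 13.2. It was at 17.3 and 14.7 FPKM in WT at day 0, at 14.3 and 12.8 at day 8, and at 3.82 and 3.23 at day 16. In 1343KO the values were 15.5 and 12.8 FPKM, then 12.3 and 11.0, then 14.5 and 13.4. The WT day 16 libraries were far below the rest, the 1343KO day 8 libraries lay next and just below the other groups, and those other 4 groups overlapped with their neighbours. At day 16 Lin28b was 3.95-fold higher in 1343KO (1.72 ± 0.14, adjusted p = 8.9e-06), while at days 0 and 8 the lines did not differ beyond the test (95% intervals -0.48 to 0.16 and -0.52 to 0.13).

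Trim71 (ENSMUSG00000079259, chr9:114507133-114564369, minus strand), an RNA-binding ubiquitin ligase that represses mRNAs and is a classic let-7 target, was at 32.5 and 32.0 FPKM in WT at day 0, 22.9 and 22.9 at day 8, and 7.95 and 7.42 at day 16. The 1343KO libraries held 42.1 and 38.3 FPKM at day 0, 30.0 and 29.5 at day 8, and 30.8 and 28.3 at day 16. WT fell at each step, while the 1343KO libraries of days 8 and 16 overlapped and every 1343KO library was above every WT library of its day. Trim71 was 3.84-fold higher in 1343KO at day 16 (1.81 ± 0.09, adjusted p = 3.2e-07) and 1.30-fold higher at day 8 (0.36 ± 0.09, adjusted p = 0.0078), the latter not passing with TPM scaling (0.18). At day 0 the difference of 0.31 did not pass (adjusted p = 0.095). Within 1343KO the fall of 0.42 from day 0 to day 8 passed (adjusted p = 0.0077), but not without replicate 1 of day 0.

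The high mobility group genes encode small chromatin proteins that bind AT-rich DNA. Hmga1 (ENSMUSG00000046711, chr17:27556497-27563674, plus strand) had the highest level of the 9 in every group, at 438 and 421 FPKM in WT at day 0, 278 and 286 at day 8, and 95.9 and 123 at day 16. Its 1343KO levels were 409 and 413, then 372 and 374, then 428 and 423 FPKM. The WT libraries of day 16 were far below all others, and the 1343KO libraries of day 16 fell between the 2 WT libraries of day 0. Hmga1 was 3.88-fold higher in 1343KO at day 16 (1.96 ± 0.09, adjusted p = 3.5e-07) and 1.32-fold higher at day 8 (0.40 ± 0.09, adjusted p = 0.0074), where TPM scaling lowered the difference to 0.20 and ended the call. Hmga1 shares reads with a near-identical gene, Hmga1b, at 50.4 and 60.7 FPKM in WT and 189 and 182 in 1343KO at day 16, so the split between the copies is uncertain. AI413582, on the opposite strand at no more than 13.2 FPKM, shares 102 exon bases with it.

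Hmga2 (ENSMUSG00000056758, chr10:120361275-120476469, minus strand), the let-7 target whose 3′ UTR held the most matches, followed another course. It was at 6.99 and 7.39 FPKM in WT at day 0, at 122 and 113 at day 8, and at 70.6 and 69.5 at day 16. The 1343KO levels were 5.40 and 5.68 FPKM at day 0, 18.2 and 14.8 at day 8, and 44.1 and 42.8 at day 16. The groups did not overlap at any day, and the peak at day 8 was seen in WT only. In WT Hmga2 rose 16.4-fold to day 8 (3.86 ± 0.10, adjusted p = 1.2e-08) and then dropped 1.68-fold (adjusted p = 0.00076). In 1343KO it rose 2.99-fold to day 8 (adjusted p = 2.5e-05) and a further 2.63-fold to day 16 (adjusted p = 0.00061). It was 7.13-fold lower in 1343KO than in WT at day 8 (-2.77 ± 0.10, adjusted p = 1.9e-07) and 1.61-fold lower at day 16 (-0.68 ± 0.10, adjusted p = 0.00046).

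The Igf2bp proteins bind mRNAs such as those of Igf2, Actb and Myc and affect their stability, location and translation. Igf2bp1 (ENSMUSG00000013415, chr11:95957163-96005940, minus strand) was at 62.1 and 61.6 FPKM in WT at day 0, 39.3 and 39.1 at day 8, and 22.1 and 25.8 at day 16. The values in 1343KO were 87.4 and 82.4, then 55.9 and 60.01, then 62.8 and 52.8 FPKM. Every 1343KO library was above every WT library of its day, and the 1343KO libraries of days 8 and 16 overlapped. The gene was 2.41-fold higher in 1343KO at day 16 (1.23 ± 0.10, adjusted p = 8.3e-06) and 1.48-fold higher at day 8 (0.55 ± 0.10, adjusted p = 0.0019). At day 0 it was 1.37-fold higher (0.45 ± 0.10, adjusted p = 0.044), a call that was lost with no filter, with TPM scaling, with the replicate number as a block, with the 4 libraries of day 0 alone, and without any 1 library of day 0 or day 8.

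Igf2bp2 (ENSMUSG00000033581, chr16:22059009-22163299, minus strand) rose in both lines. It was at 19.9 and 22.7 FPKM in WT at day 0, 69.8 and 69.6 at day 8, and 59.8 and 64.4 at day 16, against 22.03 and 19.6, 57.1 and 56.9, and 65.9 and 63.5 FPKM in 1343KO. The lines overlapped at days 0 and 16 and were apart only at day 8, where 1343KO was 1.22-fold lower (-0.29 ± 0.09, adjusted p = 0.026), a call lost without any 1 of the 4 libraries of that day. At day 16 the difference was 0.06 (adjusted p = 0.59, 95% interval -0.14 to 0.26), and its sign changed with median-of-ratios and TPM scaling (-0.07 with each).

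Igf2bp3 (ENSMUSG00000029814, chr6:49085223-49214957, minus strand), often named among the oncofetal genes, was at 17.8 and 16.4 FPKM in WT at day 0, 47.2 and 47.3 at day 8, and 44.8 and 42.1 at day 16. Levels in 1343KO were 18.0 and 18.2, then 30.7 and 33.2, then 39.5 and 36.1 FPKM. It rose in both lines, and the 1343KO libraries were below those of WT at days 8 and 16. The difference was 1.48-fold at day 8 (-0.55 ± 0.09, adjusted p = 0.00073) and did not pass at day 16 (-0.20, adjusted p = 0.079), where it did with median-of-ratios (-0.32) and TPM scaling (-0.33). Malsu1, on the opposite strand at 6.73 to 15.2 FPKM, shares 1529 exon bases with Igf2bp3, and the labels do not say that strand was used in counting.

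Prtg (ENSMUSG00000036030, chr9:72806874-72917291, plus strand) encodes protogenin, a cell surface receptor of the immunoglobulin superfamily present in the early embryo. It was at 10.1 and 9.25 FPKM in WT at day 0, 43.6 and 41.6 at day 8, and 6.55 and 6.44 at day 16. Levels in 1343KO were 9.47 and 9.77 FPKM at day 0, 16.1 and 16.8 at day 8, and 23.9 and 20.9 at day 16. WT went up and then down below its start, while the 1343KO libraries were higher at each later day, with a second step that did not pass (0.42, adjusted p = 0.13). Prtg was 2.59-fold lower in 1343KO at day 8 (-1.32 ± 0.10, adjusted p = 1.1e-05) and 3.45-fold higher at day 16 (1.64 ± 0.10, adjusted p = 1.6e-06).

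**Figure D3:**
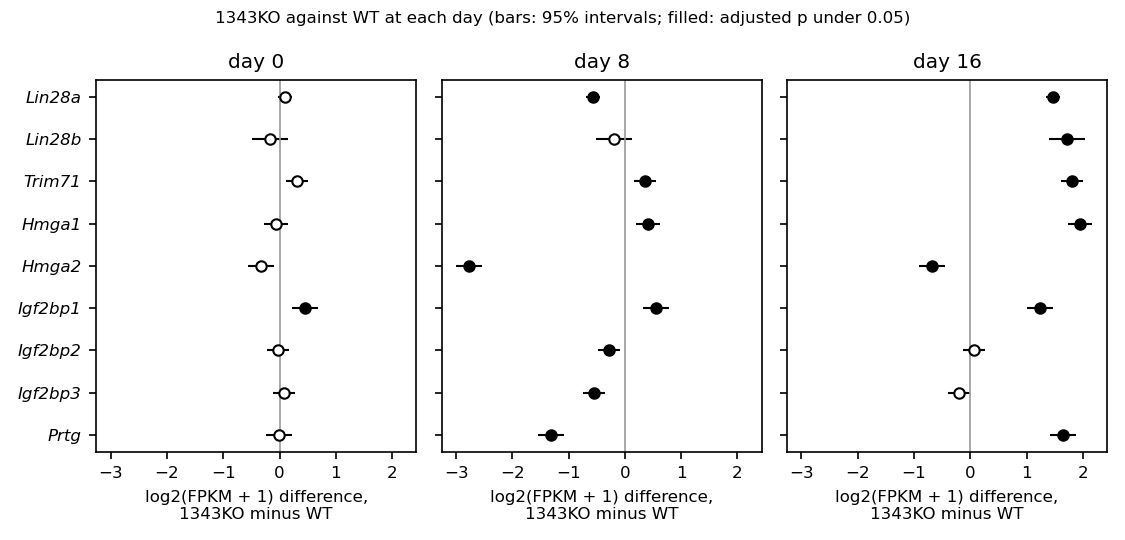
Difference between the lines at each day for the 9 genes. The x axis is the log2(FPKM + 1) difference, 1343KO minus WT, bars are 95% intervals and filled points passed at an adjusted p under 0.05. At day 0 the differences lie between -0.33 and 0.45, and at day 16 Lin28a, Lin28b, Trim71, Hmga1, Igf2bp1 and Prtg lie at 1.23 to 1.96.

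Counted over the 9 genes, 1 was higher and 0 lower in 1343KO at day 0, where 3.71% of all genes passed (1.59% higher, 2.12% lower). At day 8, 3 were higher (Trim71, Hmga1, Igf2bp1) and 5 lower (Lin28a, Hmga2, Igf2bp2, Igf2bp3, Prtg), against 42.8% of all genes (23.3% higher, 19.6% lower). The median of the 9 was -0.29 at day 8 and that of all genes 0.06.

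Within WT, 5 genes rose (Lin28a, Hmga2, Igf2bp2, Igf2bp3, Prtg) and 3 fell (Trim71, Hmga1, Igf2bp1) from day 0 to day 8, where 51.3% of all genes passed (26.8% higher, 24.5% lower). Over the whole course to day 16, 3 rose and 6 fell, so that all 9 passed, against 61.2% (32.7% higher, 28.5% lower). The falls were of 1.94 on the log2 scale for Trim71, 1.97 for Hmga1, 1.91 for Lin28b, 1.45 for Lin28a, 1.34 for Igf2bp1 and 0.51 for Prtg. From day 8 to day 16, 7 fell and none rose, Igf2bp2 and Igf2bp3 not passing, against 27.6% (14.1% higher, 13.5% lower).

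Within 1343KO, 4 rose (Hmga2, Igf2bp2, Igf2bp3, Prtg) and 3 fell (Lin28a, Trim71, Igf2bp1) from day 0 to day 8, against 23.5% of all genes (15.0% higher, 8.51% lower). At day 16 against day 0, Hmga2, Igf2bp2, Igf2bp3 and Prtg were higher and Trim71 and Igf2bp1 lower, against 26.8% (18.2% higher, 8.60% lower). Lin28a, Lin28b and Hmga1 were then at 0.940, 0.984 and 1.04 of their day 0 level, with 95% intervals of the log2 change of -0.21 to 0.04, -0.34 to 0.30 and -0.16 to 0.26. From day 8 to day 16 only Hmga2 passed, as higher, where 0.804% of all genes did (0.602% higher, 0.203% lower). Comparisons within a line share libraries, so their values are not independent.

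**Figure D4:**
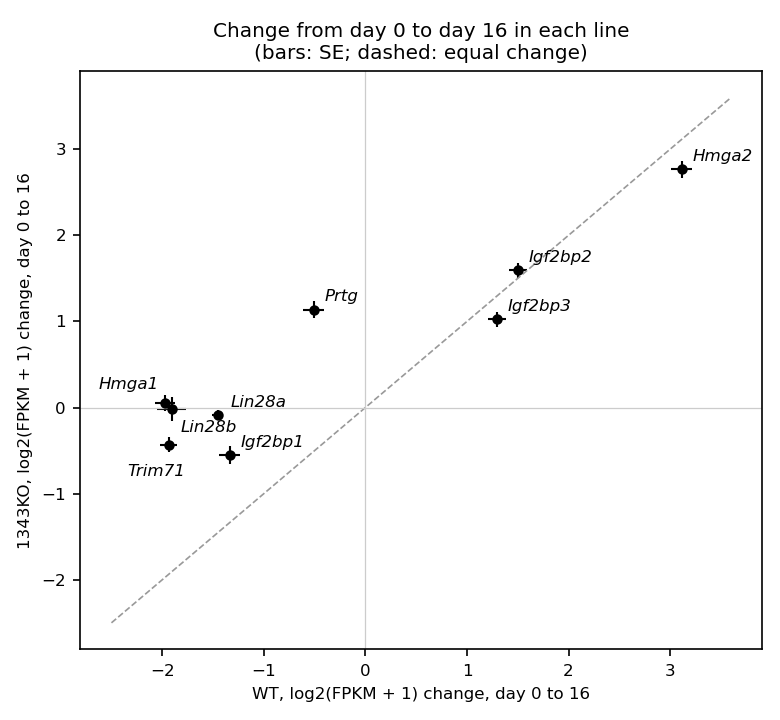
Change from day 0 to day 16 in WT (x axis) and in 1343KO (y axis), both on the log2(FPKM + 1) scale, with SE bars and a dashed line of equal change. Igf2bp2 and Igf2bp3 lie near the line, Lin28a, Lin28b and Hmga1 lie near 0 in 1343KO, and Prtg has opposite signs in the lines.

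The difference between the lines' changes was tested directly as an interaction. Between day 0 and day 16, the change of 6 genes was more upward in 1343KO than in WT (Lin28a, Lin28b, Trim71, Hmga1, Igf2bp1, Prtg) and that of 0 more downward, against 40.0% of all genes (21.7% upward, 18.2% downward). With median-of-ratios and with TPM scaling 2 passed as more downward, Hmga2 (-0.48 and -0.46) and Igf2bp3 (-0.40 with each), and Hmga2 (-0.35) also passed without either 1343KO library of day 8. Between days 0 and 8, 1 did so (Hmga1) and 4 went the other way (Lin28a, Hmga2, Igf2bp3, Prtg), against 28.3% (15.6% upward, 12.7% downward). The value of Hmga1 (0.47) did not pass with no filter, with either other scaling (0.39 and 0.28), or without any 1 library of days 0 and 8, while Igf2bp2 passed as downward with TPM scaling (-0.45). From day 8 to day 16, 7 were upward (all but Igf2bp2 and Igf2bp3) and 0 downward, against 16.7% (8.50% upward, 8.20% downward), and with TPM scaling Igf2bp3 (0.42) passed as well. The greatest of these was Prtg from day 8 to day 16, at 2.96 ± 0.15 (adjusted p = 1.2e-05).

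Markers of several, not all, other cell types differed between the lines. At day 16 the summed level of 10 fibroblast and mesenchyme markers was 3859 to 3975 FPKM in WT and 62.5 to 64.7 in 1343KO, none of them at 0 in either line, and 9 of the 10 were lower in 1343KO. The 10 yolk sac endoderm markers summed to 11560 to 11580 FPKM in WT and 107 to 116 in 1343KO, with none at 0 and 9 of the 10 lower. The 10 macrophage markers summed to 306 to 331 FPKM in WT and 8.55 to 8.87 in 1343KO, with C1qc, Tyrobp, Fcer1g and Aif1 at 0 in both 1343KO libraries and all 10 lower. At day 8 the 10 blood markers summed to 1074 to 1201 FPKM in WT and 5.32 to 7.86 in 1343KO, all 10 lower, and the 10 cardiac markers to 117 to 120.4 and 21.3 to 26.1, 7 of the 10 lower. At day 16 the cardiac sums were 71.9 to 93.7 FPKM in WT and 70.5 to 71.7 in 1343KO, with 3 markers higher and 3 lower, and the blood sums overlapped at 26.2 to 34.4 and 23.7 to 31.8, with 3 lower. Of 8 tested neural markers, 4 were higher and 0 lower in 1343KO at day 8, and 3 higher and 2 lower at day 16. Of all genes, 23.3% were higher and 19.6% lower at day 8, and 28.5% and 24.1% at day 16. The day 16 counts of cardiac and neural markers, and of lower blood markers, were near these shares. At day 8, 8 of 10 fibroblast and mesenchyme markers and 8 of 10 yolk sac endoderm markers were lower, and 1 fibroblast marker, Thy1, was higher. The lines also differed at day 0. The yolk sac endoderm markers Dab2, Cubn and Sox17, and Pdgfra, Runx1 and Sox1 of other lists, were then lower in 1343KO, and Nanog was higher. Of all genes, 2.12% were lower and 1.59% higher at day 0. The yolk sac endoderm sums at day 0 were 146.3 to 153.5 FPKM in WT and 74.4 to 91.8 in 1343KO. Of the 10 pluripotent cell markers, 9 were higher in 1343KO at day 16 and all 10 at day 8. The part of these cell types in the results was not tested, and in bulk RNA fewer cells of a type and less RNA per cell cannot be told apart.

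The Lin28 and let-7 pathway beyond the 9 genes was described by lists chosen for their known roles. Of 22 tested other let-7 targets, 11 were higher and 7 lower in 1343KO at day 16, against 28.5% and 24.1% of all genes. Their median was 0.34, against 0.07 for all genes. Genes at a mean of 20 FPKM or more outside chromosome 8 had a median of 0.40, which the list did not exceed. With the filter at a mean of 5 FPKM or more, 3756 of 9602 genes were higher and 2305 lower. Mycn, a transcription factor of the Myc family, was at 19.05 and 21.8 FPKM in WT and 66.4 and 58.8 in 1343KO at day 16 (1.57 ± 0.09, adjusted p = 8.2e-07). Arid3b, a DNA-binding protein of the ARID family, was at 14.1 and 14.4 FPKM in WT and 34.9 and 31.8 in 1343KO (1.17 ± 0.09, adjusted p = 5.1e-06). Ccnd2, a D-type cyclin, moved the other way, from 62.8 and 67.2 FPKM in WT to 11.7 and 11.8 in 1343KO (-2.37 ± 0.10, adjusted p = 1.7e-07). In none of these 3 genes did the libraries of the lines overlap.

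At day 8, 5 of the 22 were higher (2 with TPM scaling, 3 without replicate 2 of WT at day 8) and 9 lower, against 23.3% and 19.6% of all genes, so the share that was higher was near that of all genes. The genes of the smallest p were Ccnd2 (-2.33), Arid3b (-1.03) and the insulin receptor gene Insr (-1.86). Like Lin28a and Prtg, Arid3b was lower in 1343KO at day 8 and higher at day 16. At day 0, 2 were higher (Ccnd2, 0.76, and Ccnd1, 0.59), against 1.59% of all genes. Neither passed with the 4 libraries of day 0 alone. Ccnd1 did not pass without any 1 of those libraries. Insr lies on chromosome 8. At a mean level of 20 FPKM or more, chromosome 8 genes had a median difference of -0.16 at day 8, and genes of the other chromosomes 0.25. The part of this in the result for Insr was not tested. From day 0 to day 16 in WT, 8 of the 22 rose, near the 32.7% of all genes, and 10 fell, against 28.5% of all genes, with Ccnd2 (3.16), Myc (-2.60) and Mycn (-1.75) of the smallest p. Of the 22, 18 held a let-7 seed match and 10 an 8mer.

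Of 15 tested genes of microRNA processing and let-7 decay, 12 passed between the lines at day 8 and 10 at day 16. At day 16, 8 were higher in 1343KO (Xpo5, Drosha, Ago1, Tarbp2, Dicer1, Dgcr8, Tnrc6c, Dis3l2) and 2 were lower (Tut7, Tut4), against 28.5% and 24.1% of all genes. The median was 0.64, against 0.07 for all genes and 0.40 for genes at a mean of 20 FPKM or more outside chromosome 8. Xpo5, the export receptor of precursor microRNAs, was at 11.2 and 11.3 FPKM in WT and 30.5 and 29.4 in 1343KO (1.33 ± 0.09, adjusted p = 2.3e-06). Drosha, the nuclease that cuts primary transcripts, was at 16.8 and 17.2 against 36.4 and 35.1 FPKM (1.03 ± 0.09, adjusted p = 1.6e-05). Ago1, an Argonaute protein, was at 9.53 and 8.55 against 19.3 and 19.1 FPKM (1.01 ± 0.11, adjusted p = 4.7e-05). All 3 fell in WT between day 0 and day 16 and did not pass in 1343KO.

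The 2 that were lower are the uridyl transferases that act on precursor let-7 bound by Lin28. Tut7 was at 36.7 and 34.3 FPKM in WT and 16.5 and 13.2 in 1343KO at day 16 (-1.21 ± 0.16, adjusted p = 0.00021). Tut4 was at 42.8 and 35.8 against 21.3 and 20.97 FPKM (-0.86 ± 0.18, adjusted p = 0.003). Both were lower in 1343KO at day 16, where Lin28a and Lin28b were higher, and Tut4 was lower at day 8 too (-0.80, adjusted p = 0.0058), where Lin28a was also lower. At day 8, 7 of the 15 were higher and 5 lower, against 23.3% and 19.6% of all genes, with Xpo5 (0.74), Ago1 (0.80) and Drosha (0.60) of the smallest p, and the count of lower genes was 1 to 3 without replicate 1 or replicate 2 of WT at day 8 or without replicate 1 of 1343KO at day 8. At day 0 none passed.

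**Figure D5:**
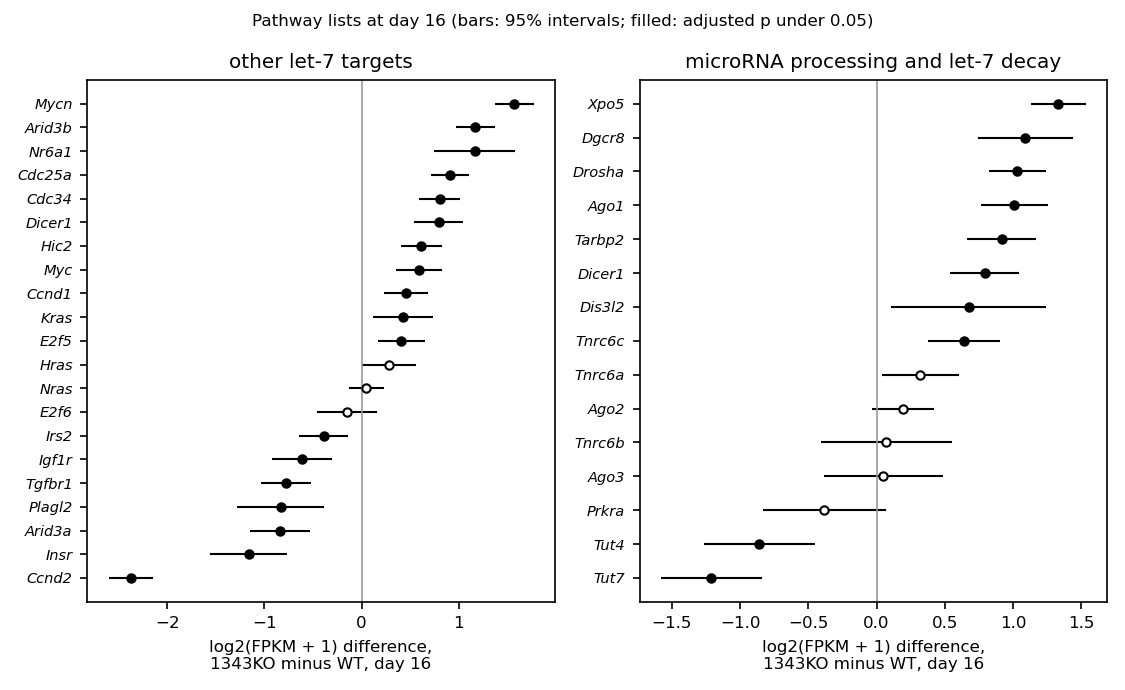
Differences between the lines at day 16 for 21 of the 22 other let-7 targets and 15 genes of microRNA processing and let-7 decay. The x axes are log2(FPKM + 1) differences, 1343KO minus WT, bars are 95% intervals and filled points passed at an adjusted p under 0.05. Ccnd2 is at -2.37 and Mycn at 1.57, and Tut4 and Tut7 are the 2 processing genes called lower.

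Of 13 let-7 host and precursor entries, the 12 precursors were listed at 0 in every library. Mir99ahg, the noncoding host of a let-7 gene on chromosome 16, was at 2.36 and 1.01 FPKM in WT at day 16. It was at 0 and 0.162 in 1343KO at day 16, and at 0 in all other libraries. Only those WT libraries brought it through the filter on low values, so a test of that group would rest on the filter and is not given.

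All 4 mRNAs listed as repressed by Trim71 passed as lower in 1343KO at day 16, as did 24.1% of all genes. Cdkn1a, the cell cycle inhibitor p21, was at 85.1 and 82.3 FPKM in WT and 32.1 and 40.9 in 1343KO (-1.18 ± 0.13, adjusted p = 5e-05). Mbnl1, a splicing regulator of differentiated cells, was at 18.4 and 16.8 against 4.20 and 4.44 FPKM (-1.81 ± 0.20, adjusted p = 5.5e-05). The transcription factor genes Egr1 (-0.60, adjusted p = 0.021) and Hoxa5 (-1.12, adjusted p = 0.0056) were low, at 1.04 to 6.39 FPKM in WT and 0 to 3.85 in 1343KO. Without replicate 1 of WT at day 16 neither of these 2 passed, and without replicate 1 of 1343KO Egr1 did not. At day 8 Egr1, Mbnl1 and Cdkn1a were lower, as were 19.6% of all genes, and none of the 4 passed at day 0.

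Among 5 RNAs known to be bound by Igf2bp proteins, 3 were lower in 1343KO at day 16 and 1 was higher, against 24.1% and 28.5% of all genes. The fetal growth factor Igf2 was at 3515 and 3477 FPKM in WT and at 434 and 433 in 1343KO (-3.01 ± 0.11, adjusted p = 7.3e-08). H19, the noncoding RNA of the same imprinted region, was at 583 and 595 against 218 and 216 FPKM (-1.44 ± 0.09, adjusted p = 1.3e-06), and the adhesion receptor Cd44 at 8.39 and 8.14 against 2.91 and 1.98 FPKM (-1.44 ± 0.20, adjusted p = 0.00028). Myc was 0.59 higher in 1343KO (adjusted p = 0.0012). Actb, beta actin, differed by -0.01 (adjusted p = 0.91), or by -0.13 and -0.14, passing, with median-of-ratios and TPM scaling, and its sign changed without replicate 1 of WT. At day 8, 4 of the 5 were lower (Igf2, H19, Cd44, Actb), against 19.6% of all genes. At day 0 Actb was higher, as were 1.59% of all genes, but not without either WT replicate or without replicate 2 of 1343KO.

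By the smallest root mean square difference of centred group means over the 6 groups, among 10314 named protein-coding genes, the genes most like Lin28a were Aurkb (0.208), Spag5 (0.208) and Cenpf (0.225), all of which act in mitosis. Ccnf (0.118) and Fancd2 (0.120) were among the 3 most like Trim71. For Hmga2 they were Ramp2 (0.301), Tgfb2 (0.335) and Tspan18 (0.359), a looser likeness. The group means of Ccnf were 48.7, 35.8 and 12.7 FPKM in WT at days 0, 8 and 16 and 58.4, 38.2 and 39.2 in 1343KO.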

How the data were processed

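Poly(A) RNA of 12 libraries (2 lines, 3 days, 2 replicates a group) was prepared with the NEBNext Ultra II kit, per the labels' protocols. The authors deposited FPKM values per gene. Cufflinks 2.1.1 and the build GRCm38 (mm10) are named in the submitters' processing notes. An aligner, an annotation and the use of strand were not given in the sources used here. Such values rest on how reads were divided between near-identical genes, and a few abundant genes can lower all others. Of the identifiers, 99.9% were found in GENCODE M21. Positions are those of GRCm38, counted from 1. Groups were taken from the titles.

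The test used genes that reached 1 FPKM in 2 libraries or more, and was run with limma 3.58.1 (R 4.3.3) on log2(FPKM + 1), with 1 mean per group over all 12 libraries, 6 residual degrees of freedom and a variance trend. There were 12 contrasts, with two-sided p adjusted by Benjamini-Hochberg over all genes within each. An exact permutation test of 2 against 2 libraries cannot go below p = 0.333, so calls rest on the spread pooled over genes and groups. Depth was estimated from the steps of low values in transcripts of at least 1500 nt, assuming fragments of 200 nt, and 85.8% to 88.8% of those values lay no more than 5% from a whole fragment count. On simulated data made for 1343KO against WT at day 16 (15907 genes, 200 changed) the fit recovered 75% of 2-fold and 100% of 4-fold changes, and 4.89% of calls were false. The changed genes were drawn from genes well above 1 FPKM in WT at day 16, with noise drawn independently for each value. In the data 52.6% of genes passed at day 16, so these rates need not hold for the real calls or for low genes.

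The 9 genes and the lists were chosen with earlier results of these data known. The text names all 9 genes, up to 3 called genes of the smallest p per list and comparison, every gene of a list of at most 5, and the 3 genes of the most similar pattern, apart from a few results that are not reported here. Tut4, Tut7 and the genes listed by name only were named after their values were seen. Acvr1c and Ago4 did not pass the filter. Alternatives were another pseudocount and filter, median-of-ratios and TPM scaling, a replicate block, robust empirical Bayes, each day alone, and each library left out. Python 3.11.15 with matplotlib 3.10.9, numpy 2.4.6 and pandas 2.3.3 made the tables and figures.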

Additional observations from a re-analysis of the deposited data

Results flagged for a closer look

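The genes below differed between the lines in how they changed with time, by the interaction term of the limma fit (change in 1343KO minus change in WT, log2 scale, 2 libraries a group). From day 0 to day 8 the value was -0.67 for Lin28a, 0.47 for Hmga1, -2.44 for Hmga2, -0.63 for Igf2bp3 and -1.31 for Prtg. Of these, Hmga1 did not pass with no filter, with median-of-ratios or TPM scaling, or without any 1 library of days 0 and 8.

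From day 0 to day 16 it was 1.37 for Lin28a, 1.89 for Lin28b, 1.51 for Trim71, 2.02 for Hmga1, 0.78 for Igf2bp1 and 1.64 for Prtg. From day 8 to day 16 it was 2.04 for Lin28a, 1.92 for Lin28b, 1.45 for Trim71, 1.56 for Hmga1, 2.09 for Hmga2, 0.68 for Igf2bp1 and 2.96 for Prtg. These intervals share libraries, so the values are not independent of each other.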

How the results depend on the processing

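Of 108 comparisons (9 genes, 12 contrasts), 72 passed; 65 of these passed in all 20 settings that gave a value, 7 were lost in some, and 0 changed sign. The 9 genes' count at day 0 (1) became 0 with no filter, with TPM scaling, with the replicate block and with the 4 libraries of day 0 alone, and was 0 to 1 with a library left out. The replicate block changed no other call of the 9 genes. The deviations of same-numbered replicates correlated at -0.0358 to 0.0360 over 15 pairs of groups, so the numbers were not taken to pair samples.

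Values that had not passed and changed sign were as follows. With TPM scaling, the 1343KO change from day 8 to 16 was 0.031 for Trim71 and 0.035 for Igf2bp1, and the difference of changes from day 0 to 8 was -0.13 for Trim71 and -0.084 for Igf2bp1. With median-of-ratios scaling that of Trim71 was -0.017, and the 1343KO change of Hmga1 from day 0 to 16 was -0.097. For Igf2bp2 the lines differed at day 16 by -0.065 with median-of-ratios and -0.073 with TPM, and the changes from day 0 to 16 by -0.039 and -0.035.

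With 1 library left out, ranges that crossed 0 were -0.14 to 0.11 (Lin28b, 1343KO, day 0 to 16), -0.16 to 0.10 (Lin28b, difference of changes, day 0 to 8), -0.069 to 0.046 (Trim71) and -0.13 to 0.11 (Igf2bp1, both 1343KO, day 8 to 16), -0.0095 to 0.12 (Trim71, difference of changes, day 0 to 8), -0.12 to 0.061 (Igf2bp2) and -0.061 to 0.051 (Prtg, both lines at day 0), -0.00048 to 0.18 (Igf2bp2, difference of changes, day 0 to 16) and -0.015 to 0.00094 (Actb, lines at day 16). The cause was not tested.

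Scaling moved the median of all genes by -0.11 (median-of-ratios) for 1343KO from day 0 to 16, and with TPM by -0.12 for the lines at day 8, -0.14 for the difference of changes from day 0 to 8 and -0.11 from day 0 to 16. With TPM, 2822 genes were higher and 4131 lower at day 8, against 3788 and 3185 as deposited, and 1769 and 2611 against 2534 and 2071 for the change from day 0 to 8. The filter was applied after scaling, so the genes tested also changed. They numbered 18674 with TPM, 16300 with median-of-ratios and 16289 as deposited, and 13200 with the 4 libraries of day 0 alone. In 1343KO, median-of-ratios gave 2258 higher and 2151 lower at day 16 against day 0, where 2967 and 1401 passed as deposited, and 2038 and 1846 at day 8, with 1991 and 1749 by TPM, where 2441 and 1387 passed. Genes called at day 0 numbered 604, 88 with the 4 libraries of day 0 alone and 197 to 524 with a library left out; those of 1343KO from day 8 to 16 numbered 131 and 23 to 133. The same settings were run on the other lists after seeing the data. Lin28b at day 16 in WT rests on about 116 fragments in its lowest library, so its fold is less precise than that of Lin28a.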
